A study of Mus musculus with 12 samples.

Results

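Acta2, the smooth muscle alpha-actin gene, and 9 genes of the same contractile apparatus were followed through RNA-seq of mouse primary neural stem cells. The 10 genes were taken by symbol: Acta2, Actg2, Tagln, Tagln2, Tagln3, Cnn1, Myl9, Tpm1, Tpm2 and Cald1. They are 10 of the 54356 genes with a transcript in the tables, and 8 of them were among the 16043 genes that passed the filter on low counts. The set was selected on 3 h counts: Acta2 and Tagln were higher, and Tagln2 lower, in libraries labelled Chd5-/-. The genotype difference at 3 h is therefore given as values with no test. The cells were kept in medium with EGF and FGF2 and then moved to neurobasal medium with B-27, which starts neural differentiation. The 4 groups of 3 libraries each were wild type at 3 h and at 48 h of differentiation and Chd5-/- at the same times. Chd5 encodes a chromatin remodelling protein of the CHD family. How the Chd5 allele was made, and whether replicates came from separate animals or cultures, is not given in the sources used here, so p-values measure the spread between these libraries, which may be technical.

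In smooth muscle, actin filaments slide past myosin when the regulatory light chain of myosin is phosphorylated. Tropomyosin, caldesmon, calponin and transgelin lie along the actin filament and steady it or regulate it. Many of these genes carry CArG boxes, the sites bound by serum response factor (SRF) with coactivators of the myocardin family. In brain tissue, Acta2, Tagln and Cnn1 are known chiefly from smooth muscle and mural cells of vessels. Tpm1 and Cald1 are also made in non-muscle cells, as shorter or different isoforms that begin at other first exons.

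Coding starts of the transgelins and of the actin pair are printed because the findings turn on which close relative was expressed. Each line is the first 60 coding bases of a GENCODE M21 transcript, with the start codon in capitals.
Tagln: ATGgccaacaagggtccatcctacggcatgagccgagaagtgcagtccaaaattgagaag
Tagln2: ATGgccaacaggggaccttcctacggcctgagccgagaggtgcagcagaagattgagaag
Tagln3: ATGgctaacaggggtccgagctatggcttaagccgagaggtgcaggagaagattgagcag
Acta2: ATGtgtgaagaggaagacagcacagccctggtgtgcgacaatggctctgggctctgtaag
Actg2: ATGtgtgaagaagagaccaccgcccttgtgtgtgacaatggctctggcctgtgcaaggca

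Over the aligned coding sequence, Acta2 and Actg2 were 84.4% identical. Tagln was 70.7% identical to Tagln2 and 71.8% to Tagln3, and Tagln2 was 70.2% identical to Tagln3. Stretches of 31 bases shared with other genes' transcripts made up 1.5% of those of Acta2, 1.53% of Actg2, 1.61% of Tagln2 and at most 0.617% of the other members except Tagln. Tagln lies on the minus strand, and 53.8% of its 31-base stretches also occurred, on either strand, in the antisense gene Gm48529 or in Pcsk7. Gm48529 lies inside Tagln on the opposite strand and was not analysed here. The library kit keeps strand, per the labels, but whether the read assignment used it is not given in the sources used here, so the Tagln values are uncertain in this respect.

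Each library held 14113872 to 18708226 estimated reads. Wild-type replicate 1 at 3 h and replicate 2 of both genotypes at 48 h stood apart from the other libraries of their groups. A chi-square test of their gene counts against another library of the group gave 138 to 451 per gene, against 1.83 to 5.53 between the other libraries. Genes of ribosomal proteins took 15.75% of reads in that 3 h library and 3.42% to 4.32% in the other 11. Levels are in CPM, that is reads per 1000000 on scaled library sizes. Genes of mitosis summed to 1880 CPM in wild-type replicate 2 at 48 h and to 1730 CPM in Chd5-/- replicate 2, against 109 to 121 CPM in the other 48 h libraries. Results that rest on these 3 libraries are given with and without them. Chd5 itself went against the genotype labels at 3 h. It measured 3.54, 3.93 and 4.66 CPM in wild type, against 5.25, 6.31 and 7.06 CPM in the libraries labelled Chd5-/-. At 48 h the values were 6.59, 7.15 and 5.28 CPM in wild type, against 5.7, 3.34 and 2.96 CPM in the labelled Chd5-/- libraries. Per length, in transcripts per 1000000 (TPM), Chd5 at 48 h was at 0.624, 0.495 and 0.519 in wild type. The labelled Chd5-/- libraries held 2.56, 3.88 and 2.6 TPM, higher without overlap, so the direction at 48 h depended on the measure. Reads from a transcript that is disrupted but still made would also be counted, so the level of Chd5 does not check the labels fully, and the groups are called by their labels throughout.

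Acta2 was near 0 in 3 of the 4 groups. In libraries labelled Chd5-/- at 3 h it measured 598, 574 and 566 CPM, against 6.79, 3.59 and 2.72 CPM in wild type at 3 h. The 3 h groups did not overlap, and the fitted log2 difference was 7.07 (SE 0.87), a description because these values chose the gene. At 48 h the level in wild type was 3.91, 0.27 and 1.93 CPM, and in the labelled Chd5-/- libraries 3.47, 10.5 and 3.72 CPM. The 48 h groups overlapped. The log2 difference at 48 h, 1.53 (SE 0.71), did not pass edgeR's quasi-likelihood test with Benjamini-Hochberg adjustment over all genes (adjusted p = 0.46). It was 0.33 without the 3 libraries that stood apart, and Acta2 passed at 48 h in 0 of 21 alternative analyses. In bulk RNA, fewer cells expressing a gene and less RNA per cell cannot be told apart, and this holds for every member.

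Actg2, the smooth muscle gamma-actin gene, was also highest in the labelled Chd5-/- libraries at 3 h, at a far lower level. It measured 3.8, 3.72 and 3.7 CPM in the labelled Chd5-/- libraries at 3 h and 1.11, 0.228 and 0.389 CPM in wild type at 3 h. All 6 libraries at 48 h were at or below 0.135 CPM. The 3 h libraries of the labelled Chd5-/- group lay above every other library. The 48 h groups held 4 reads in wild type and 2 reads in the labelled Chd5-/- libraries, a ratio of 1.95 with a 95% counting interval of 0.539 to 16.1.

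**Figure D1:**
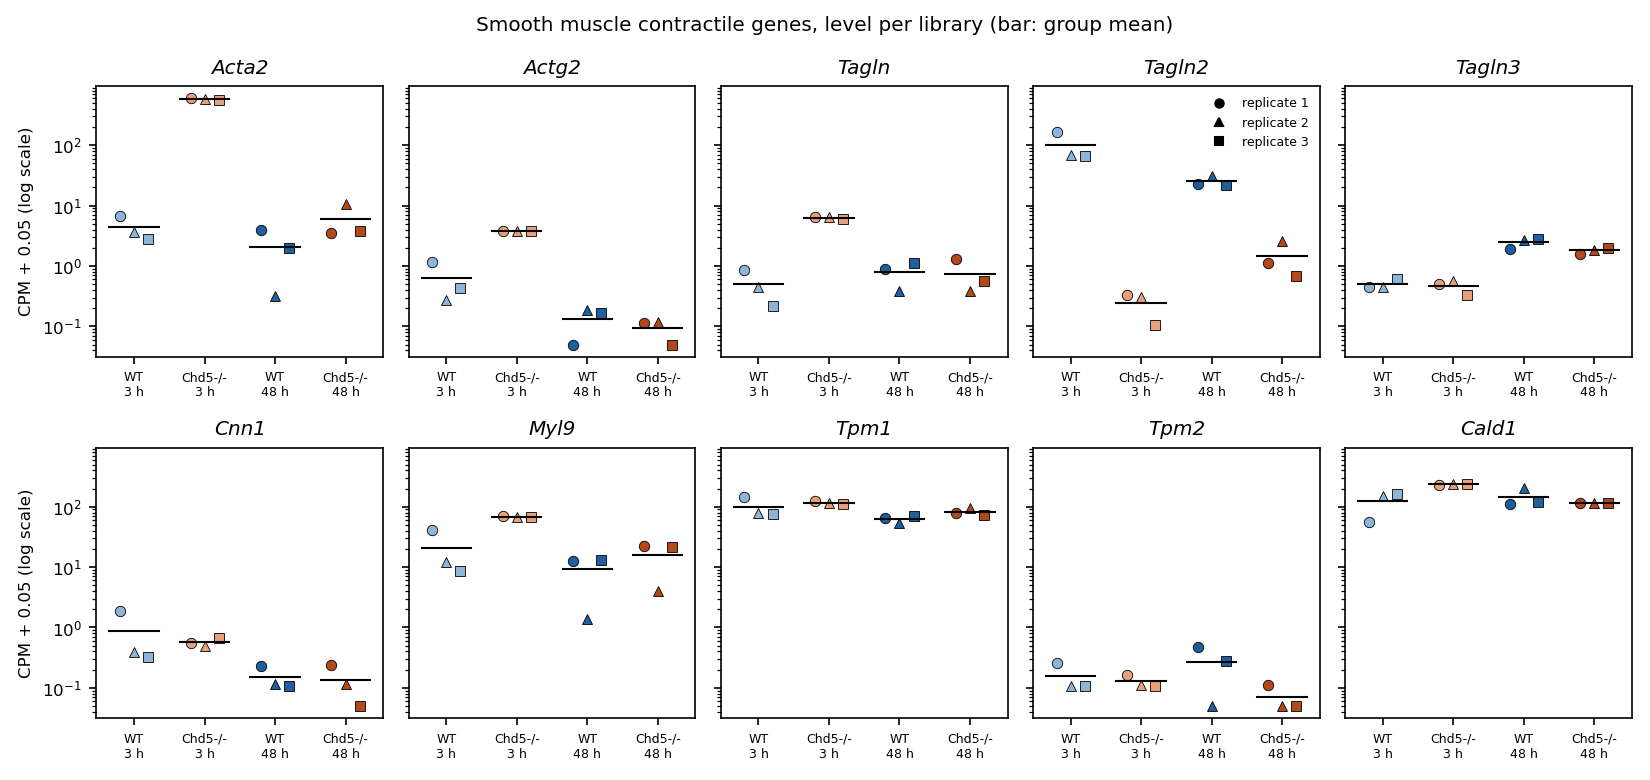
Level of each of the 10 genes in each of the 12 libraries, in CPM + 0.05 on a log axis that all panels share; symbols mark replicates and bars group means. Acta2, Actg2 and Tagln stood highest in the libraries labelled Chd5-/- at 3 h, while Tagln2 was lowest there.

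The transgelins, a family of small actin-binding proteins, went different ways. Tagln, the smooth muscle member also called SM22-alpha, measured 6.48, 6.31 and 5.86 CPM in the labelled Chd5-/- libraries at 3 h. Wild type at 3 h had 0.81, 0.399 and 0.167 CPM, below each of them. At 48 h both groups were low, with 0.855, 0.337 and 1.08 CPM in wild type, against 1.24, 0.334 and 0.505 CPM in the labelled Chd5-/- libraries. The 48 h groups overlapped, and the log2 difference was -0.13 (SE 0.62, edgeR adjusted p = 1).

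Tagln2, the member made widely outside smooth muscle, was nearly absent from the labelled Chd5-/- libraries at both times. Wild type at 3 h measured 167, 69.4 and 66.3 CPM, against 0.279, 0.253 and 0.0569 CPM in the labelled Chd5-/- libraries. At 48 h, wild type measured 22.7, 30.9 and 21.9 CPM, against 1.05, 2.54 and 0.631 CPM. The genotypes did not overlap at either time. The rule that chose the genes names a direction at 3 h only. At 48 h Tagln2 was lower by a log2 difference of -4.16 (SE 0.59, edgeR adjusted p = 0.0045). This passed in 21 of 21 alternative analyses, with values of -4.89 to -3.8 and adjusted p of 1.3e-10 to 0.0337. The value was -4.7 without the 3 libraries that stood apart and -4.28 with replicate number as a block (edgeR adjusted p = 0.00925). Tagln2 was the only member that passed at 48 h when all libraries were fitted, 0 higher and 1 lower of the 8 tested, where 2.74% of all genes tested passed, 1.53% higher and 1.21% lower. With replicate number as a block 8.82% of the genes tested passed and Tagln2 was again the only member. Without the 3 libraries 47.2% passed, 25.6% higher and 21.6% lower, and among the members 2 were higher (Myl9 and Tpm1) and 1 lower.

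Wild-type Tagln2 reads came from a pair of protein-coding transcripts. Tagln2-202 held 66.2% to 74.2% of the gene's reads and Tagln2-201 held 22.9% to 25.9% in 5 of the 6 wild-type libraries. Wild-type replicate 1 at 3 h gave 100% to Tagln2-202. The labelled Chd5-/- libraries at 3 h held 10 Tagln2 reads in all, too few to divide between transcripts.

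Tagln3, the transgelin known from neurons, was higher at 48 h than at 3 h in both genotypes. It measured 0.405, 0.399 and 0.555 CPM in wild type at 3 h and 1.83, 2.63 and 2.73 CPM at 48 h. The labelled Chd5-/- libraries had 0.447, 0.505 and 0.285 CPM at 3 h and 1.55, 1.8 and 1.96 CPM at 48 h. In both genotypes each 48 h library lay above each 3 h library. The fitted log2 difference of 48 h from 3 h was 2.37 in wild type (SE 0.36) and 2.08 in the labelled Chd5-/- libraries (SE 0.36). Tagln3 passed the filter on low counts through its 48 h libraries alone, so these differences are a description with no test. The difference between the genotypes' time courses was -0.29 (SE 0.51, edgeR adjusted p = 0.845), and the genotypes overlapped at 48 h (log2 difference -0.44, SE 0.33, adjusted p = 0.808).

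Cnn1, basic calponin and a late marker of contractile smooth muscle, stayed under 2 CPM in every library and failed the filter on low counts. Its highest library was wild-type replicate 1 at 3 h with 1.82 CPM, one of the libraries that stood apart. The labelled Chd5-/- libraries at 3 h held 0.503, 0.442 and 0.626 CPM, within the wild-type range of 0.278 to 1.82 CPM. Wild-type replicates 2 and 3 at 3 h, at 0.342 and 0.278 CPM, lay below each of them. In TPM the labelled Chd5-/- libraries at 3 h held 0.379 to 0.55 and wild type 0.154 to 0.32, without overlap. These Cnn1 values rest on 27 reads in the labelled Chd5-/- group and 29 in wild type. Tpm2, the beta-tropomyosin gene, was likewise too low to test, with at most 0.427 CPM in any library.

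Myl9, the regulatory myosin light chain of smooth muscle, stood highest in the same libraries as Acta2. At 3 h it measured 71.4, 66.7 and 66.7 CPM in the labelled Chd5-/- libraries and 41.1, 12.1 and 8.44 CPM in wild type, without overlap. At 48 h it measured 22.5, 4.01 and 21.4 CPM, against 12.8, 1.35 and 13.2 CPM in wild type. Replicate 2 was the lowest library of both genotypes at 48 h. Those are the libraries with high mitosis genes, and the part of that in the Myl9 level was not tested. With them the log2 difference at 48 h was 0.8 (SE 0.84, edgeR adjusted p = 0.913). Without the 3 libraries that stood apart it was 0.76 (SE 0.12, edgeR adjusted p = 0.000133), higher in both remaining labelled Chd5-/- libraries than in both remaining wild-type libraries. In wild type the log2 difference of 48 h from 3 h was -1.16 with all libraries and 0.3 without those 3, and passed in neither fit (edgeR adjusted p = 0.0554 in the latter). The difference of 48 h from 3 h in the labelled Chd5-/- libraries did not pass with all libraries (log2 difference -2.1, SE 0.86, adjusted p = 0.106) and passed without those libraries (-1.67, SE 0.09, edgeR adjusted p = 6.46e-10).

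Tpm1, the alpha-tropomyosin gene, was expressed in all 4 groups, at group means of 63 to 116 CPM. It measured 144, 77.4 and 75.6 CPM in wild type, against 123, 113 and 111 CPM in the labelled Chd5-/- libraries at 3 h. At 48 h the values were 64.7, 53.8 and 70.4 CPM in wild type, against 77.5, 95.7 and 72.3 CPM in the labelled Chd5-/- libraries. The 48 h groups did not overlap, but the log2 difference of 0.38 (SE 0.27) did not pass (edgeR adjusted p = 0.775). Without the 3 libraries it was 0.16 (SE 0.06, edgeR adjusted p = 0.0461). In both genotypes each 48 h library lay below each 3 h library. The log2 difference of 48 h from 3 h was -0.65 (SE 0.27) in wild type and -0.5 (SE 0.27) in the labelled Chd5-/- libraries. Neither passed with all libraries (edgeR adjusted p = 0.0996 and 0.209).

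Cald1, which encodes caldesmon, measured 230, 241 and 241 CPM in the labelled Chd5-/- libraries at 3 h and 55.2, 153 and 160 CPM in wild type, without overlap. At 48 h the labelled Chd5-/- libraries held 117, 115 and 115 CPM and wild type 111, 207 and 119 CPM. The 48 h groups overlapped, with a log2 difference of -0.33 (SE 0.37, edgeR adjusted p = 0.926). The change with time in wild type changed direction with the libraries used. It was 0.25 with all libraries (edgeR adjusted p = 0.653) and -0.49 without the 3 that stood apart (edgeR adjusted p = 2.74e-07). In the labelled Chd5-/- libraries the difference of 48 h from 3 h was -1.03 (SE 0.37), which did not pass (edgeR adjusted p = 0.0714), and it was -1.06 without the 3 libraries (edgeR adjusted p = 2.75e-11).

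**Figure D2:**
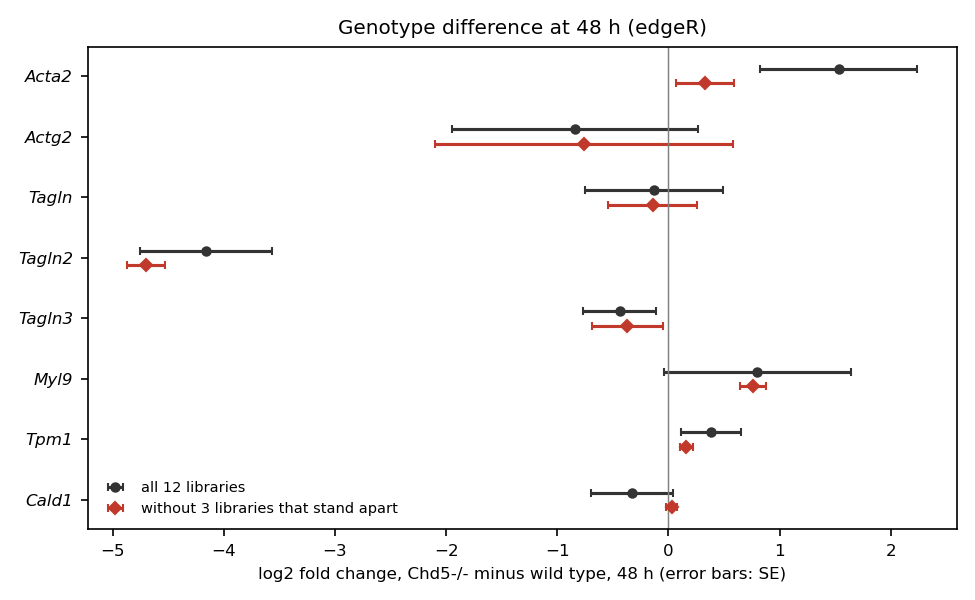
Log2 difference between libraries labelled Chd5-/- and wild type at 48 h for the 8 members tested, with its SE, for all 12 libraries (circles) and without the 3 libraries that stood apart (diamonds). Tagln2 sat at -4.16 and -4.7; no other member lay beyond 1.53 on either side of 0.

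The median log2 difference of the 8 tested members at 48 h was -0.23, against -0.02 over all genes tested. At 3 h, 6.71% of all genes passed by the same threshold, 3.24% higher and 3.48% lower, and no count of members is read there because that contrast chose the genes. With replicate number as a block, 0 genes passed at 3 h in edgeR, with 2401 at an unadjusted p under 0.05, and DESeq2 without the block called 2091.

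Between 3 h and 48 h, 22.9% of all genes passed in wild type, 12.7% higher and 10.1% lower. In the labelled Chd5-/- libraries 22.1% passed, 14.1% higher and 8.03% lower. Without the 3 libraries that stood apart these shares were 76.0% and 79.0%. These contrasts share the 3 h libraries with the one that chose the genes, so Acta2, Tagln and Tagln2 are described only. Actg2 and Tagln3 are likewise described only, since each passed the filter through the groups where it was high. Of the other 3 tested members, Myl9, Tpm1 and Cald1, none passed in either genotype with all libraries. From the labelled Chd5-/- means, Acta2 went from 579 CPM (SD 16.6, n = 3) to 5.91 CPM (SD 4.02, n = 3), and Tagln from 6.22 CPM (SD 0.321, n = 3) to 0.692 CPM (SD 0.481, n = 3). Tagln2 went from 101 CPM (SD 57.5, n = 3) to 25.2 CPM (SD 4.96, n = 3) in wild type. In the labelled Chd5-/- libraries it went the other way, from 0.196 CPM (SD 0.121, n = 3) to 1.41 CPM (SD 1, n = 3). The Actg2 level in the labelled Chd5-/- libraries at 3 h was 87.9 times that at 48 h, with a 95% counting interval of 24.3 to 726. The test of whether genotype changed the time course called 0.231% of all genes and passed for none of Tagln3, Myl9, Tpm1 and Cald1 (edgeR, smallest adjusted p = 0.455). Without the 3 libraries it called 40.4% of genes, and Myl9, Tpm1 and Cald1 passed, but not Tagln3. This test contains the 3 h genotype difference, the contrast that chose the set, so these passes are not independent evidence. The time differences of Myl9 and Cald1 in the labelled Chd5-/- libraries use the same 3 h values, and the same limit holds for them.

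Tpm1 and Cald1 are each transcribed from more than 1 first exon, and the division of reads between these exons differed more than the totals did. The coding starts of a Tpm1 transcript from the upstream first exon and one from the internal first exon show that the choice changes the protein's amino end. Both lines give the first 60 coding bases in GENCODE M21, with the start codon in capitals.
Tpm1-207 (upstream): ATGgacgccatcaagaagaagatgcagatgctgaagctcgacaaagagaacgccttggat
Tpm1-211 (internal): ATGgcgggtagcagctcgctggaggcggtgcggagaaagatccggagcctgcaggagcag

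The upstream first exon of Tpm1 ends at base 67049019 of chromosome 9 (GRCm38, minus strand) and starts 13 annotated transcripts. The internal first exon ends at base 67043578 and starts 7. At 3 h, transcripts with the upstream exon took 6.82%, 9.29% and 7.49% of Tpm1 reads in wild type and 38.6%, 26% and 29.8% in the labelled Chd5-/- libraries. At 48 h they took 14.6%, 16.9% and 23% in wild type, against 35%, 33.1% and 34.3% in the labelled Chd5-/- libraries. The genotypes did not overlap at either time, and replicate 2, which stood apart at 48 h, sat with the others of its genotype. Exact permutation of 3 against 3 libraries cannot give a p below 0.1, so no test is given. These shares are divisions of reads among overlapping transcripts as Salmon estimated them, and carry no error of their own here.

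Transcript Tpm1-207 gave the clearest division. It was assigned 0 reads in each of the 6 wild-type libraries, 342.9, 225.5 and 272.5 reads in the labelled Chd5-/- libraries at 3 h, and 153.5, 133.2 and 91.3 reads at 48 h. Those reads were 12.6% to 15.6% of the gene at 3 h and 8% to 12.3% at 48 h. Tpm1-206, from the internal exon, held 15%, 7.3% and 10.2% of reads in wild type at 3 h and at most 0.3% in the labelled Chd5-/- libraries. At 48 h it held 14.7%, 9.9% and 8.6% in wild type, against 0%, 3.5% and 5.4% in the labelled Chd5-/- libraries. The most used transcript, Tpm1-211, overlapped between the genotypes at 48 h, at 33.8% to 37% in wild type, against 35.2% to 45.4% in the labelled Chd5-/- libraries.

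Cald1 shares stood apart in the labelled Chd5-/- libraries at 3 h. Its upstream first exon ends at base 34598665 of chromosome 6 (GRCm38, plus strand), and its main internal first exon ends at base 34709697. Transcripts from the upstream exon took 32.9%, 30.7% and 31.7% of Cald1 reads in the labelled Chd5-/- libraries at 3 h and 0%, 2.75% and 7.03% in wild type. At 48 h the shares were 6.2%, 4.62% and 3.12% in the labelled Chd5-/- libraries and 2.29%, 0% and 3.6% in wild type, and these overlapped. The upstream reads lay chiefly on Cald1-204, which held 1209.2, 953.5 and 1295.8 reads in the labelled Chd5-/- libraries at 3 h and at most 202.2 in any other library. The internal transcript Cald1-203 held 2290.6, 2309.2 and 2300.9 reads there, close to the 2297.1 and 2217.6 reads of wild-type replicates 2 and 3. Wild-type replicate 1, which stood apart, held 539.8.

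**Figure D3:**
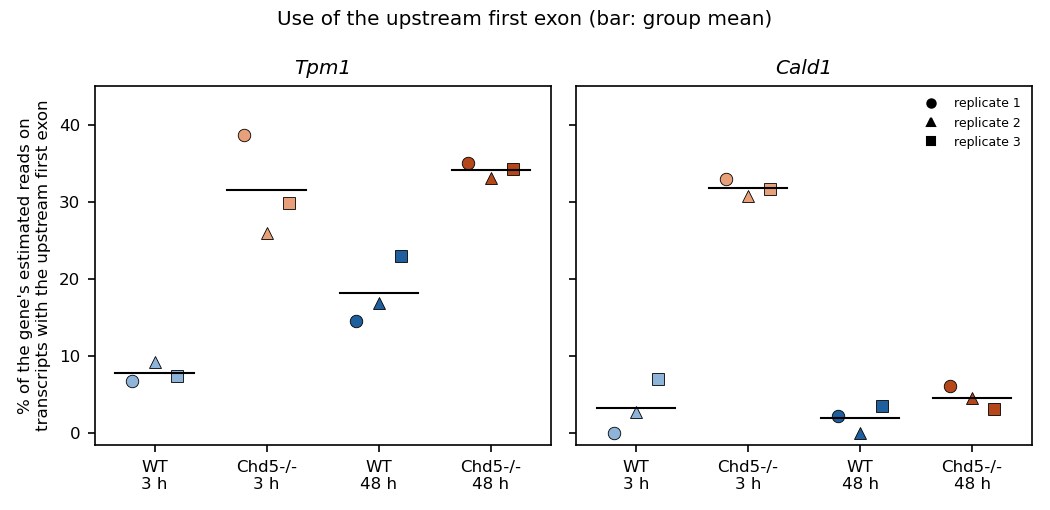
Share of Tpm1 reads (left) and Cald1 reads (right) on transcripts that begin at the upstream first exon, in percent of the gene's estimated reads, for each library, with bars at group means. Tpm1 shares were 26% or more in all 6 libraries labelled Chd5-/- and 23% or less in wild type; Cald1 shares were above 30% in the labelled Chd5-/- libraries at 3 h and at most 7.03% elsewhere.

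Levels between genes are compared per length, in TPM (transcripts per 1000000). In the labelled Chd5-/- libraries at 3 h, the level of Acta2 was the highest of the members at 277 to 283 TPM, then Myl9 at 102 to 113, Cald1 at 76.2 to 80.8, Tpm1 at 56.4 to 59.4, Tagln at 9.08 to 9.2 and Actg2 at 1.97 to 2.9 TPM, with no overlap between neighbours in that order. Cnn1, Tagln3, Tpm2 and Tagln2 were each below 1 TPM there. In wild type at 3 h the highest levels were those of Tagln2 at 23.7 to 56.1 TPM, Tpm1 at 27.1 to 38.8 and Cald1 at 2.99 to 43.3, which overlapped. Myl9, at 9.28 to 18.6 TPM, also lay within the range of Cald1, and Acta2 was at 0.728 to 1.8 TPM. At 48 h Cald1 led in wild type at 54.9 to 84.6 TPM, above Tpm1 at 29.9 to 46 TPM. In the labelled Chd5-/- libraries Cald1 at 46.9 to 61.1 and Tpm1 at 51.2 to 58.2 TPM overlapped. Acta2 was at 0.0987 to 2.42 TPM in wild type and 1.49 to 6.44 TPM in the labelled Chd5-/- libraries at 48 h.

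**Figure D4:**
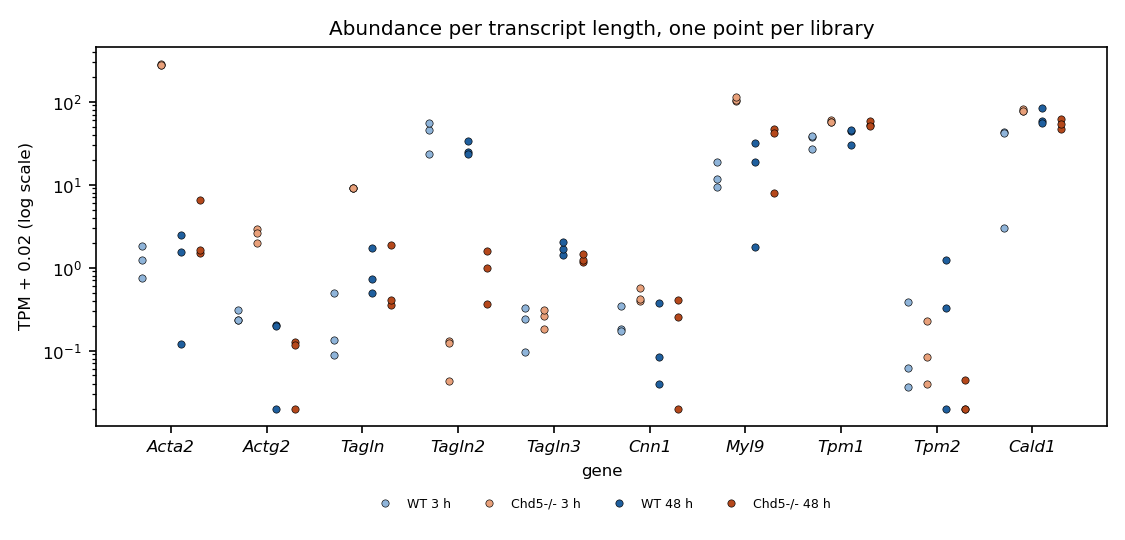
Abundance of the 10 genes per transcript length in each library, in TPM + 0.02 on a log axis, with 1 point per library and colours for the 4 groups. Acta2 was the most abundant member only in the libraries labelled Chd5-/- at 3 h, at 277 to 283 TPM.

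CArG boxes were looked for in the 300 bases from 250 before to 50 after RefSeq gene starts (GRCm38.p6), where 9 windows covered 8 members; Tagln and Actg2 had no window. The box is printed because SRF binds it, and Acta2 and Myl9 were the members with a match. Both were highest in the labelled Chd5-/- libraries at 3 h, but so was Cald1, whose windows held no match. Tagln and Actg2, also highest there, could not be searched. Whether the box bears on these levels was not tested. Capitals mark the box in each 30-base window, given on the gene's strand.
Acta2, chr19:34255438-34255467, minus strand: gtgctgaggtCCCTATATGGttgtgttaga
Acta2, chr19:34255388-34255417, minus strand: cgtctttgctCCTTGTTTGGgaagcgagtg
Myl9, chr2:156775293-156775322, plus strand: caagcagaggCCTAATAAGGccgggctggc
Myl9, chr2:156775355-156775384, plus strand: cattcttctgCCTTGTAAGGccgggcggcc

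The search took CC, then 6 central bases of A or T, then GG, which reads the same way on both strands, and a looser form in which 1 of the 6 may be another base. The first Myl9 box met the strict form, which 1.63% of 32851 windows of this length held. The other 3 boxes met the looser form, which with the strict form was in 9.98% of windows. Acta2 and Myl9 each held 2 matches, as 0.822% of windows did. Tagln2, Tagln3, Cnn1, Tpm1, Tpm2 and both Cald1 windows held no match to these letters. A match is a description of sequence, and binding was not measured.

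The gene next to Acta2 was also higher in the labelled Chd5-/- libraries. Stambpl1, a deubiquitinase gene on the opposite strand, ends 757 bases from Acta2. It measured 75.7, 71.9 and 75 CPM in the labelled Chd5-/- libraries at 3 h and 27.5, 32.7 and 33.7 CPM in wild type, without overlap. At 48 h it measured 22.8, 40.7 and 17.9 CPM, against 12.2, 18.4 and 10.2 CPM in wild type, which overlapped, and the log2 difference of 1 did not pass (edgeR adjusted p = 0.176). Near Tagln, Pcsk7 on the opposite strand overlaps its end. It measured 44.2, 41.5 and 40.5 CPM in the labelled Chd5-/- libraries at 3 h and 28, 24.6 and 23.4 CPM in wild type, without overlap. Pcsk7 had a 48 h log2 difference of -0.09 (adjusted p = 1), and Sidt2 differed by -0.17 (adjusted p = 0.944, both from edgeR).

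Of 20 other smooth muscle contractile and cytoskeletal genes, 18 were tested at 48 h and none passed in edgeR, with a median log2 difference of -0.03. The count at an unadjusted p under 0.05 was 5, and DESeq2 called 3. The most abundant were Flna, which crosslinks actin filaments (log2 difference -0.72, SE 0.19, edgeR adjusted p = 0.0869), and Vcl, the adhesion protein vinculin (-0.07, SE 0.47, adjusted p = 1). When the 3 libraries that stood apart were left out, 7 were called higher and 6 lower. In that fit 47.2% of all genes tested passed, 25.6% higher and 21.6% lower, and these shares stand beside every such list count below. At 3 h, Csrp1, Flna and Kcnmb1 were among the genes higher in the labelled Chd5-/- libraries, and Pdlim3 was among those lower. They are named because they passed in edgeR in the 3 h contrast that chose the set, so they are a description. Other genes of the list that did not pass were also without overlap. Nexn measured 22.2, 22.7 and 21.9 CPM against 3.85, 6.55 and 6.66 CPM in wild type. Kcnmb1, a subunit of the calcium-activated potassium channel of smooth muscle, measured 15, 16.1 and 14.6 CPM in the labelled Chd5-/- libraries at 3 h and 0.709, 0.512 and 0.444 CPM in wild type. Csrp1, an actin-associated LIM protein, measured 385, 372 and 361 CPM against 168, 92.3 and 88.9 CPM. Myh11, the smooth muscle myosin heavy chain and a defining gene of mature smooth muscle, did not follow Acta2: it measured 0.615, 0.821 and 0.683 CPM in the labelled Chd5-/- libraries at 3 h and 0.709, 0.797 and 1.11 CPM in wild type.

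SRF and its partners were mostly expressed. Counts in this paragraph without the 3 libraries stand beside the 47.2% of all genes tested that passed in that fit. Of 12 genes, 11 were tested at 48 h, and none passed in edgeR (0 at an unadjusted p under 0.05 and 0 in DESeq2; median log2 difference 0.04; 5 higher and 3 lower without the 3 libraries). The most abundant were Elk3 (log2 difference -0.61, SE 0.38, adjusted p = 0.688) and Hexim1 (0.3, SE 0.21, adjusted p = 0.758). Srf measured 66.1, 68.2 and 68.2 CPM in the labelled Chd5-/- libraries at 3 h and 54.5, 54.1 and 54.8 CPM in wild type. Myocd, the coactivator myocardin, had 0 reads in all 12 libraries; both were named for their values. Of 14 early SRF targets of the actin cytoskeleton, 13 were tested and none passed at 48 h (4 at an unadjusted p under 0.05 and 3 in DESeq2; median -0.04; 4 higher and 6 lower without the 3 libraries). Of 13 other actins, tropomyosins, calponins and myosin light chains, all were tested and none passed (1 at an unadjusted p under 0.05 and 0 in DESeq2; median 0; 4 higher and 6 lower without the 3 libraries). The most abundant in both lists were the cytoplasmic actins Actg1 (log2 difference 0.28, SE 0.25, adjusted p = 0.859) and Actb (-0.04, SE 0.37, adjusted p = 1, all from edgeR).

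The TGF-beta pathway is a known inducer of smooth muscle genes in other cells. Of 18 genes, 17 were tested at 48 h, with 0 higher and 2 lower in edgeR. Of all genes tested 2.74% passed there, 1.53% higher and 1.21% lower. The median log2 difference of the list was -0.29, with 6 at an unadjusted p under 0.05 and 5 called by DESeq2. Tgfb1, a ligand, measured 0.433, 0.868 and 0.442 CPM in the labelled Chd5-/- libraries at 48 h and 3.18, 5.33 and 3.52 CPM in wild type (log2 difference -2.77, SE 0.53, edgeR adjusted p = 0.0182). The genotypes did not overlap for Tgfb1. At 3 h, Ltbp1, Tgfb2 and Tgfbr3 were among the genes higher in the labelled Chd5-/- libraries, and Tgfb1 and Smad6 were among those lower. They are among the listed genes that passed in edgeR in the 3 h contrast that chose the set, so they are a description. Tgfb2, another ligand, measured 39.2, 37 and 40 CPM in the labelled Chd5-/- libraries at 3 h and 2.94, 7.52 and 7.49 CPM in wild type. Without the 3 libraries, 3 of the list were called higher at 48 h and 7 lower, where 47.2% of all genes tested passed.

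Markers of cells that could bring smooth muscle transcripts were checked. Neural stem cell markers, which check the label, were high: Vim was at 967 CPM or more, Fabp7 at 526 or more and Nes at 322 or more in every library, although 1 of the 10 markers, Prom1, stayed under 1 CPM. None of 9 tested passed at 48 h in edgeR (2 at an unadjusted p under 0.05 and 1 in DESeq2). Leaving out the 3 libraries that stood apart called all 9, of which 6 were higher and 3 lower, where 47.2% of all genes tested passed. Of 12 pericyte and mural cell markers, 5 (Pdgfrb, Rgs5, Abcc9, Kcnj8 and Higd1b) were below 1 CPM in every library, and Higd1b had 0 reads. The summed level of the 12 was 152 to 162 CPM in the labelled Chd5-/- libraries at 3 h and 71.8 to 202 CPM in wild type, a range that held the former. This overlap rested on wild-type replicate 1, which stood apart and gave the 71.8 CPM. The other wild-type libraries at 3 h, at 196 and 202 CPM, lay above all the labelled Chd5-/- libraries. Most of the summed level in the labelled Chd5-/- libraries was Notch3, at 112, 114 and 121 CPM, then Mcam, at 21.2, 23.4 and 21.2 CPM, and Cspg4, at 17, 16.2 and 19.2 CPM. Neural or oligodendrocyte progenitors also express Notch3 and Cspg4. In wild type at 3 h, Notch3 measured 22.3, 108 and 104 CPM and Mcam 20.6, 70.3 and 69.1 CPM, both lowest in replicate 1. Anpep was at 0 CPM in the labelled Chd5-/- libraries at 3 h and 0.999 to 1.25 CPM in wild type. Des measured 0, 0.126 and 0.171 CPM in the labelled Chd5-/- libraries at 3 h and 4.66, 0.683 and 0.888 CPM in wild type. These 3 h values are given with no test. Of the 7 markers tested, none passed at 48 h in edgeR (3 at an unadjusted p under 0.05 and 2 in DESeq2). Leaving out the 3 libraries called 2 higher (Cspg4 and Notch3) and 3 lower (Des, Mcam and Myh11).

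Of 13 fibroblast and leptomeningeal markers, Col1a2, Dcn, Lum and Postn were below 1 CPM in every library. The sum of the 13 was 152 to 163 CPM in the labelled Chd5-/- libraries at 3 h and 292 to 384 CPM in wild type. Fbln1 made up much of the wild-type sum, at 308, 142 and 140 CPM against 19.4, 22.3 and 19.7 CPM. Fn1, most abundant in the labelled Chd5-/- libraries, overlapped, at 127, 131 and 138 CPM against 61.7, 128 and 135 CPM in wild type. Thy1 was higher there, at 1.23, 1.52 and 1.48 CPM against 0.203, 0.0569 and 0.0555 CPM. These 3 h values are named with no test. At 48 h, 2 of 9 tested were higher and 1 was lower, where 2.74% of all genes tested passed. Those higher were Pdgfra (log2 difference 2.56, SE 0.54, edgeR adjusted p = 0.0301) and Twist1 (2.02, SE 0.44, edgeR adjusted p = 0.0349). Fbln1 was lower (-3.56, SE 0.75, edgeR adjusted p = 0.03). Leaving out the 3 libraries, 3 of 10 were called higher and 3 lower, where 47.2% of all genes tested passed. Of 8 endothelial markers, Pecam1, Cdh5, Cldn5 and Tie1 were below 1 CPM in every library. The sum was 0.967 to 1.73 CPM in the labelled Chd5-/- libraries at 3 h and 3.75 to 7.97 CPM in wild type. At 48 h, 1 of 5 tested was called lower, where 2.74% of all genes tested passed. That was Tek, at 0.433, 0.467 and 0.189 CPM against 7.51, 7.01 and 6.42 CPM in wild type. Tek passed the filter on low counts through wild type alone, so its log2 difference of -4.24 (SE 0.64) is a description. Leaving out the 3 libraries, 1 of the 5 was higher (Flt1) and 1 lower. Of 10 striated muscle markers, Myod1, Myog, Myf5, Pax7 and Ckm were below 1 CPM in every library, and neither of the 2 tested, Ttn and Ryr1, passed at 48 h in edgeR (2 at an unadjusted p under 0.05 and 0 in DESeq2). Leaving out the 3 libraries, 5 were tested and 4 were lower (Myh3, Tnnt2, Tnnt3 and Ttn).

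The genes whose levels most resembled Acta2 over the 12 libraries were Diras2, Ak1, Sf3b2, Ube2ql1 and Parvb, with Pearson r of 0.968 to 0.977 on log2(CPM + 1) among 10738 genes with a mean of 5 CPM or more. Diras2, a small GTPase, had mean levels of 59.8 CPM in the labelled Chd5-/- libraries at 3 h and at most 2.98 CPM in the other groups. Parvb, an actin-binding protein of integrin adhesions, had 158 CPM there and 49.4 to 66 CPM elsewhere. Tagln was most like Cbln1, Ablim1, Ak1 and Acta2 (r of 0.941 to 0.967). Tagln2 was most like Osr2, Ctsz, Nqo1, Mknk2 and Acy3 (r of 0.947 to 0.974). Ctsz, a lysosomal protease, had means of 71.6 CPM in wild type, against 0.657 CPM in the labelled Chd5-/- libraries at 3 h, and 19.4 against 0.154 CPM at 48 h. These correlations describe 12 libraries in 4 groups and carry no test. Any part of depth or of a shared batch in them was not tested.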

How the data were processed

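Messenger RNA was sequenced from 12 libraries made with a TruSeq stranded kit, per the labels' protocols. The authors deposited, per the file headers, Salmon transcript tables with estimated counts, TPM and effective length; Salmon is also named in the submitters' processing notes, with no version or index stated there. Of 140658 transcripts, 140137 matched GENCODE M21 (GRCm38); the 521 others held 0.135% to 0.181% of reads. Estimated counts were summed per gene and rounded, and deposited TPM values were summed. CPM values were computed on TMM-scaled library sizes. Genes passing filterByExpr (count minimum 10, total 15) were tested with edgeR 4.0.16 in R 4.3.3 (quasi-likelihood F test, 1 mean per group, all 12 libraries, two-sided, Benjamini-Hochberg, adjusted p under 0.05) and checked with limma 3.58.1 and DESeq2 1.42.0; the fit was tested on simulated data. Replicate numbers were taken to pair libraries in the genotype contrasts, because deviations of same-numbered libraries correlated above 0.1 in every pair (r = 0.13 to 0.26 at 3 h, 0.7 to 0.79 at 48 h); replicates 1 and 3 also correlated with each other at 48 h (0.71 and 0.72), as did replicates 2 and 3 at 3 h (0.14 and 0.13), and the labels say nothing of pairing. In the time contrasts they did not. Sequences came from GENCODE M21 transcripts and the RefSeq promoter table, read with Python 3.11.15.

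The members and gene lists were chosen with earlier results of these data known. Named genes were the 10 members, coding neighbours within 20 kb and Chd5. The 5 genes most like Acta2, Tagln and Tagln2 were also named, as were list genes that passed at 48 h. Of the latter, up to 4 were taken by smallest p, or the 2 most abundant if none passed. Some list genes are named because they passed at 3 h, as said there, and others for their values. Counting intervals are exact, at the 0.95 level, and cover counting error only. For Myl12b the entry with the most reads was used. Genes that met the naming rule but are not named in the text are not reported here.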

Additional observations from a re-analysis of the deposited data

Results flagged for a closer look

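Tagln2 moved in opposite directions with time in the 2 genotypes, in every library. In wild type each 48 h library lay below each 3 h library, at 21.9 to 30.9 CPM against 66.3 to 167 CPM. In the libraries labelled Chd5-/- each 48 h library lay above each 3 h library, with a mean of 1.41 CPM at 48 h against 0.196 CPM at 3 h. These labelled Chd5-/- levels rest on few reads, 5, 4 and 1 at 3 h and 17, 38 and 10 at 48 h. The 38 came from replicate 2, which stood apart. The difference between the time courses of the genotypes was not tested, because the 3 h values chose the gene.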

How the results depend on the processing

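Counts of genes that passed moved with the processing more than the members did. At 48 h the genotype count of 440 became 920 in DESeq2, 266 with an offset for transcript length, 263 with only the groups compared, 1330 with replicate number as a block and 7791 without the 3 libraries that stood apart; leaving out 1 library gave 184 to 1454. At 3 h the count of 1077 became 2091 in DESeq2, 0 with the block (edgeR; 2401 at an unadjusted p under 0.05) and 8659 without the 3 libraries, and 419 to 1636 leaving out 1. The wild-type time count of 3668 became 0 with only the groups compared (edgeR; 3649 at an unadjusted p under 0.05) and 0 with the replicate block (2599), where limma called 3348 and DESeq2 4856 on all libraries; it was 12539 without the 3 libraries and 1464 to 5419 leaving out 1. The time count of 3544 in libraries labelled Chd5-/- became 7836 with only its groups, 6214 with the block, 13029 without the 3 libraries and 1708 to 7280 leaving out 1. The interaction count of 37 became 385 in DESeq2, 18 with the block, 6669 without the 3 libraries and 15 to 310 leaving out 1. Leaving out wild-type replicate 1 at 3 h raised all 5 counts, and leaving out replicate 2 of either genotype at 48 h raised that of the interaction to 108 (wild type) and 99; the lowest counts came from leaving out replicates 1 or 3 at 48 h, or any labelled Chd5-/- library at 3 h. Differences of members that did not pass with all libraries reversed as follows. With the 3 libraries left out, the wild-type time differences of Cald1 (to -0.49) and Myl9 (to 0.3), the Tpm1 interaction (-0.43 against 0.16) and the Cald1 genotype difference at 48 h (to 0.03) did. Leaving out 1 library gave ranges that crossed 0. They were -0.13 to 0.48 for Cald1 over time in wild type (below 0 without wild-type replicate 1 at 3 h, or without wild-type replicate 2 at 48 h at -0.09) and -0.49 to 0.01 for the Cald1 genotype difference at 48 h (above 0 without that 48 h library). For the Tpm1 interaction the range was -0.21 to 0.31 (below 0 without wild-type replicate 1 at 3 h), and for Tagln by genotype at 48 h it was -0.84 to 0.21 (above 0 without wild-type replicate 3 at 48 h, or without labelled Chd5-/- replicate 2 or 3, at 0.19 and 0.05). The block changed no member's call at 48 h. Time contrasts share only a number between libraries, whose deviations correlated at -0.02 to 0.02. The causes were not tested. Depth limits Cnn1, Tpm2 and Actg2 at 48 h, with at most 11 reads a group, and Tagln2 in the labelled Chd5-/- group at 3 h, with 10 reads.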
